A study of Mus musculus with 8 samples.

Results

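The cytosolic ribosomal protein genes are described here gene by gene in mouse bone marrow progenitors. Members were every gene whose symbol is Rps or Rpl followed by a number (with an optional letter a, x, l or y and a further number), plus Rpsa, Rplp0, Rplp1 and Rplp2, with the S6 kinase genes (Rps6k) left out. Of 84 symbols that fit, Rpl10l fell under the minimum of 100 UMIs (unique molecular identifiers, one per captured RNA molecule) and was left out. This gave 83 members, 32 of the small and 51 of the large subunit, among 27998 genes in the table, of which 19020 had at least 1 UMI. They held 35.3% of all UMIs.

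The cells were KL cells, sorted from bone marrow as CD117 (c-Kit) positive and negative for the lineage antigens CD3, CD4, CD8, CD45R, CD11b, TER119 and GR1. All donors were female B6 mice aged 3 to 4 months. SPF mice were kept in a specific-pathogen-free facility, and CVT mice were moved to a conventional facility and co-housed there for 1 month with CVB mice, which had lived in it since birth. Its cages were open and its chow was not autoclaved, so that caging and feed differ together with microbes between the groups. Each housing group had 10 mice combined into 4 pools of 2 or 3 mice, and each pool gave 1 droplet library (10x Chromium 3′ v2), so the pool is the replicate.

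Each cytosolic ribosome joins a small subunit, which reads the mRNA, to a large subunit, which forms the peptide bond, and nearly every subunit protein is present once per ribosome. Transcripts of these genes start at a pyrimidine tract that couples their translation to growth signals. Haematopoiesis is sensitive to their dosage: loss of 1 copy of several of them causes Diamond-Blackfan anaemia, in which red cell precursors fail, and loss of RPS14 underlies the anaemia of the 5q- syndrome.

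The pools held 1888 to 4845 cells and 19041749 to 59812346 UMIs, and single cells held 2759 to 49732 UMIs. Cells were given to pools by the number that ends each cell's name, read as the pool number of the labels, and every housing result rests on that reading. Pools shared 522 of 29365 barcodes, which covered 1048 cells. The doublet caller marked 27 cells (0.0903%), too few to have worked, and no cell was removed. Clusters were formed without the 83 members and named only from marker lists, so "LTHSC-like" stands for a cluster led by Hlf, Mecom and Procr (long-term stem cell genes), "GMP-like" for clusters led by Mpo, Elane, Prtn3 and Ctsg (granulocyte-monocyte progenitor genes), and "erythroid-like" for clusters led by erythroid genes such as Car1, Rhd or the globins. Clusters without a marker of their own name among their 10 leading genes stayed unnamed (3902 cells). Listed marker genes could still lead an unnamed cluster. The largest, of 1453 cells, had Irf8, Ly86 and Ctsg among its 10 and counted in neither the monocyte-like nor the GMP-like class. The granulocyte-like class stood against the sorting label: its clusters led by Camp and by Ltf had 20.9 and 11.4 CPM of Kit, below the 32.3 to 69.9 CPM of the GMP-like clusters. Low Kit was not particular to them, with 18.3 CPM in the monocyte-like cluster led by S100a4 and Fn1 and 17.9 CPM in the erythroid-like globin cluster.

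Library CVT pool 4 stood apart among the members. A member's part is its UMIs per 10000 member UMIs of the same cells. Among 81 members with at least 10000 UMIs, the part in CVT pool 4 differed from the median of the other 7 pools by over 0.15 on the log2 scale in 25 members, against 0 to 7 members for each other pool. Rpl12 (85.1 per 10000 in this pool, 68.2 to 71.8 in the others), Rps12 (135 against 108 to 117) and Rpl7a (62.2 against 49.0 to 54.7) were high. Rpl35 (66.9 against 88.1 to 103), Rps27 (77.5 against 97.9 to 119), Rps28 (72.3 against 91.3 to 107) and Rps29 (148 against 167 to 207) were low. The same held inside classes, with 23 of 74 members in LTHSC-like, 22 of 80 in GMP-like and 25 of 81 in erythroid-like cells. Across the 80 members with a coding sequence in the GENCODE M21 annotation, the log2 difference of this pool from the others rose with coding length (Spearman's rho 0.49), while in CVT pool 5 it fell (rho -0.79); the points share 1 library, and rho for the other pools ran from -0.64 to 0.58. The part of this in the results was not tested, so many housing values are also given without CVT pool 4, and the rest include it.

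Start sites are shown for members that the results below turn on, since the pyrimidine tract at the start is the sequence feature that defines this mRNA class. Each run is 30 bases of RefSeq sequence on GRCm38.p6, 15 before and 15 from the annotated start, 5′ to 3′ on the strand of the gene, so it covers the end of the promoter and the first bases of exon 1. Capitals mark a C followed by at least 5 bases that are each C or T. The CC that opens the Rps27l window ends a longer tract that begins before it. Capitals cover the annotated start itself in the Rps27, Rpl14 and Rpl27a windows, and in the other marked windows they lie before or after it.
Rps27l (chr9:66946071-66946100, plus strand): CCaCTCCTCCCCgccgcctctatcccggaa
Rps27 (chr3:90213634-90213663, minus strand): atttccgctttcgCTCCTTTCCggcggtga
Rps2 (chr17:24720048-24720077, plus strand): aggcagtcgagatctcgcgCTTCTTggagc
Rps12 (chr10:23787195-23787224, minus strand): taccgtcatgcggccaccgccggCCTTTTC
Rpl12 (chr2:32961697-32961726, plus strand): ggcggagcaggatccgtCTTTTCggctttc
Rpl14 (chr9:120571502-120571531, plus strand): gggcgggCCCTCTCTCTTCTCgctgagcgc
Rpl27a (chr7:109519180-109519209, plus strand): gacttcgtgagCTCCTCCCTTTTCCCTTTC
Rpl22l1 (chr3:28805493-28805522, plus strand): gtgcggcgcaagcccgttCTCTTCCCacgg
Rpl7l1 (chr17:46782642-46782671, minus strand): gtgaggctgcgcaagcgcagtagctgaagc
The Rpl7l1 window held no such tract, nor did both annotated starts of Rpl22 or a second annotated start of Rps27l. Of 62 members with an entry in the promoter table, 41 (66.1%) had a tract that began within 20 bases of a start, against 9239 of 27025 genes (34.2%) and 29 of 69 mitochondrial ribosomal protein genes (42.0%). The ETS-type motif CCGGAAGT, searched on both strands from 250 bases before to 50 after the start, was in 12 members (19.4%), Rps27l among them, against 1164 of all genes (4.31%) and 12 mitochondrial ribosomal protein genes (17.4%). Both are matches of letters and not measured sites, and a tract counted here need not cover the start.

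In all KL cells the members spanned a wide range of levels in CPM (UMIs scaled to the library total of the same cells). On this scale each 3′ UMI counts 1 captured molecule. Differences between libraries still moved with coding length, as given above for CVT pools 4 and 5. Rpl32, a large subunit protein, was highest with 8716 ± 363 CPM (SD, n = 8 pools), followed by Rps19 with 8203 ± 255, whose neighbouring ranges overlapped (8026 to 9160 and 7784 to 8551). The median member had 4141 CPM, and 78 of the 83 were above 1000 CPM. The 5 below were all paralogue forms: Rps27l (952 ± 45.9), Rpl6l (330 ± 31.2), Rpl7l1 (105 ± 8.85), Rpl39l (0.738 ± 0.274) and Rpl3l (0.506 ± 0.201). Reads of near-identical copies, such as Rpl6 and Rpl6l or the many processed copies of these genes, can be split by counting, so these levels are uncertain.

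The share of UMIs that fell to the members was highest in CMP-like and lowest in granulocyte-like cells. It was 37.8% ± 0.997 (SD, n = 8 pools, 36.3 to 38.9) in LTHSC-like cells, 37.3% in MPP-like and 37.96% in LMPP-like (lymphoid-primed) cells, and 38.6% in CMP-like (common myeloid, Gata2 and Apoe) cells. CMP-like cells were above LTHSC-like cells in 8 of 8 pools, while LMPP-like cells were above them in 5 of 8, so that pair did not separate. Erythroid-like cells had 36.7%, megakaryocyte-like 35.5%, GMP-like 35.1% and monocyte-like 34.9%, and each of these lay below LTHSC-like cells in 8 of 8 pools. Megakaryocyte-like, GMP-like and monocyte-like cells were also below MPP-like, LMPP-like and CMP-like cells in every pool. For erythroid-like cells this held against LMPP-like and CMP-like cells, but MPP-like cells were above them in only 5 of 8 pools, and as a median over cells they had 37.8%, against 37.4% in MPP-like and 37.8% in LTHSC-like cells. Median depth moved with class, from 5098 UMIs per cell in CMP-like to 16034 in GMP-like cells (means of pool medians). Granulocyte-like cells had 14.02% ± 3.28, with 7.87 to 17.8 over the pools and no overlap with the other 9 classes compared. The median over their cells was lower, 6.52% as a mean of 8 pools, and their 3 clusters ran from 6.13% to 32.1%.

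**Figure D1:**
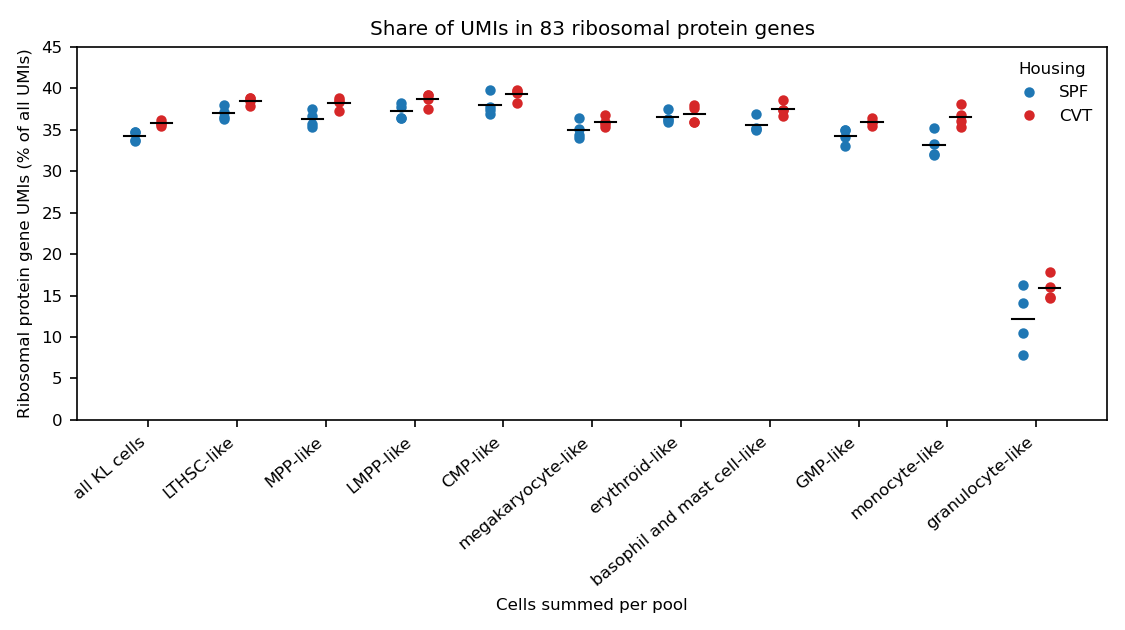
Percent of all UMIs in the 83 ribosomal protein genes (vertical axis) for all KL cells and 10 named classes, with 1 point per pool, SPF and CVT apart, and a bar at the mean of 4 pools. Granulocyte-like cells sit between 7.87% and 17.8%, and the CVT points of all KL, GMP-like and monocyte-like cells lie above their SPF points.

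All 81 members other than the sparse Rpl3l and Rpl39l were lowest in granulocyte-like cells. The other end was split by gene: 23 members peaked in CMP-like, 22 in erythroid-like, 17 in LTHSC-like, 9 in LMPP-like and 6 in GMP-like cells, with 2 each in basophil and mast cell-like and monocyte-like cells. Levels over the classes varied most (SD of log2 CPM) for Rpl3 (0.56), Rpl12 (0.56), Rps2 (0.55), Rplp1 (0.54) and Rpl14 (0.53), whose highest class had 3.58 to 4.04 times the CPM of the lowest. Variation was least for Rpl7l1 (0.27), Rps27a (0.31) and Rps29 (0.32), with folds of at most 2.14 between classes. These SDs include granulocyte-like cells, so they largely rank how far each member was lower there. Relative to the median member of the same cells the order changed: Rps27l had the largest SD of this log2 difference over classes (0.42), and Rpl19, a large subunit protein, had the smallest (0.02). On this relative scale Rpl7l1 was not steady, with -0.28 in LMPP-like, 0.25 in GMP-like and 0.59 in granulocyte-like cells.

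**Figure D2:**
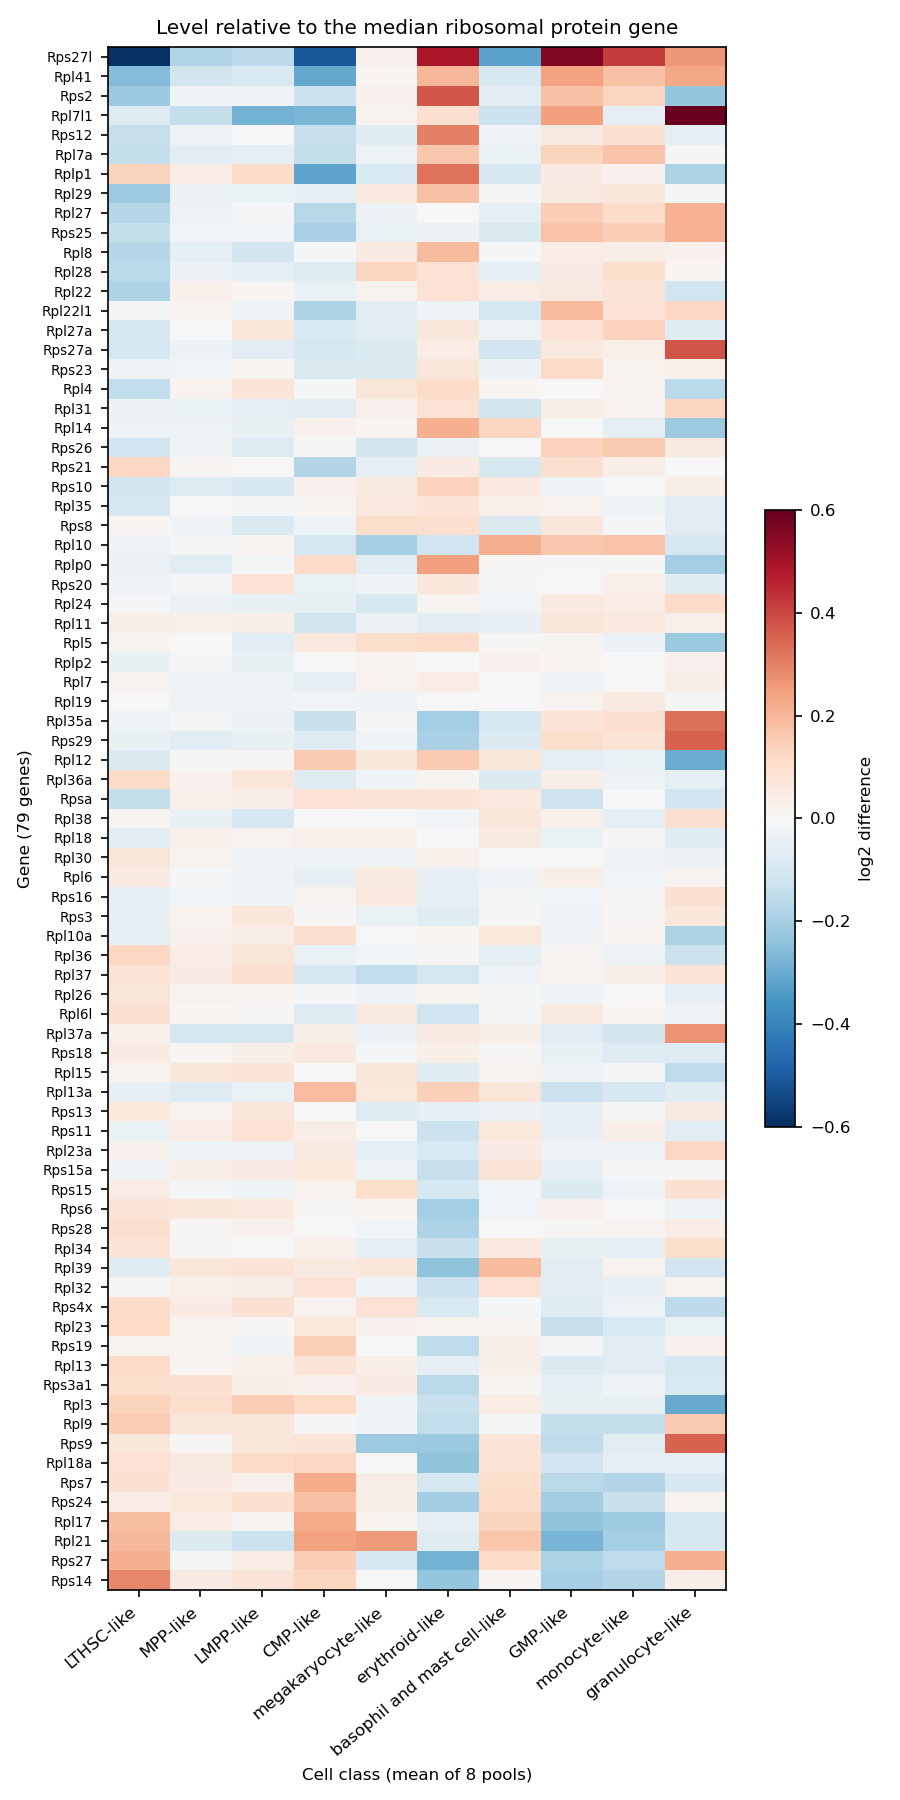
Heatmap of 79 members (rows) in 10 classes (columns), with colour for the log2 level centred on each gene's mean over classes and then taken relative to the median ribosomal protein gene of the class (mean of 8 pools). Rps27l goes from -0.59 in LTHSC-like to 0.56 in GMP-like cells, while most rows stay pale.

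Differences between states were tested with edgeR's quasi-likelihood test on UMI sums per pool and class, with the pool as a term, over 10780 genes and with Benjamini-Hochberg adjustment over all of them. Log2 fold changes are on edgeR's TMM scale unless another is named. CPM rest on library totals, so a change read from CPM can differ in size from the fold change beside it. In GMP-like against LTHSC-like cells, 67 of 81 members tested rose (32% of all genes did) and 4 fell (37.2% of all genes). The members' median log2 fold change was 0.23, against -0.09 over all genes tested. This direction depended on the scaling: with library totals only, 13 rose (20.9% of all genes) and 34 fell (51.9%), the members' median was -0.08 and that of all genes -0.40. Relative to the median gene the members were higher in GMP-like cells, and as a share of all UMIs they were lower. The distance between both medians was 0.31 to 0.32 under 5 scalings (TMM, RLE, library totals, library totals without the members, and DESeq2); scaling moves all genes together, so this distance is close to fixed by construction. Called in the same direction under all 5 scalings were 13 higher members (16% of those tested, 20.9% of all genes; among them Rpl22, Rpl27, Rpl28, Rpl41, Rpl7a, Rpl7l1, Rps2 and Rps27l) and 4 lower ones (Rpl17, Rpl21, Rps14 and Rps27; 33.7% of all genes), while 26 were called in both directions (1.05% of all genes).

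Rps27l, a p53-induced paralogue of the small subunit protein Rps27, moved most. Its lowest, median and highest pool had 525, 546 and 617 CPM in LTHSC-like cells, 718, 760 and 780 in LMPP-like cells, 1044, 1152 and 1253 in GMP-like cells, and 1002, 1181 and 1212 in erythroid-like cells. LTHSC-like pools did not overlap those of the other 3 classes. The log2 fold change from LTHSC-like cells was 0.54 in LMPP-like (standard error 0.0475, edgeR adjusted p = 2.36e-17), 1.39 in GMP-like (0.0467, adjusted p = 9.93e-45) and 1.34 in erythroid-like cells (0.0465, adjusted p = 4.98e-44), and in the latter 2 it stayed between 1.07 and 1.47 under 5 scalings. GMP-like and erythroid-like cells differed by 0.04 (standard error 0.0401, adjusted p = 0.34).

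Its partner Rps27 went the other way. LTHSC-like pools had 3829 to 5504 CPM (median 4966) and GMP-like pools 2790 to 3974 (median 3466), which overlapped across pools through CVT pool 4, the lowest pool in both classes, while within pools GMP-like cells were lower in 8 of 8. The log2 fold change was -0.18 in GMP-like (adjusted p = 4.08e-07) and -0.25 in erythroid-like cells (adjusted p = 4.14e-12, edgeR). As a share of the UMIs of the pair, Rps27l made up 10.3% in LTHSC-like (8.96 to 13.01 over 8 pools), 11.3% in CMP-like, 14.8% in LMPP-like, 25.0% in GMP-like (23.1 to 27.2) and 25.6% in erythroid-like cells (19.9 to 32.2). No pool of the last 2 classes overlapped one of LTHSC-like cells.

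The other paralogue pairs varied less between classes. Rpl22l1, the paralogue of Rpl22, held 48.2% (basophil and mast cell-like) to 55.3% (granulocyte-like) of the pair. Rpl7l1, which acts in ribosome assembly, held 2.65% of its pair with Rpl7 in LMPP-like, 3.77% in GMP-like (3.34 to 4.06) and 4.67% in granulocyte-like cells (3.77 to 5.96). Rpl6l held 7.17% to 7.65% of its pair in every class. Rpl3l, a muscle paralogue of Rpl3, and Rpl39l, known from the testis, had 165 and 258 UMIs in total and were not tested between states, and 39 of the Rpl3l UMIs came from granulocyte-like cells.

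**Figure D3:**
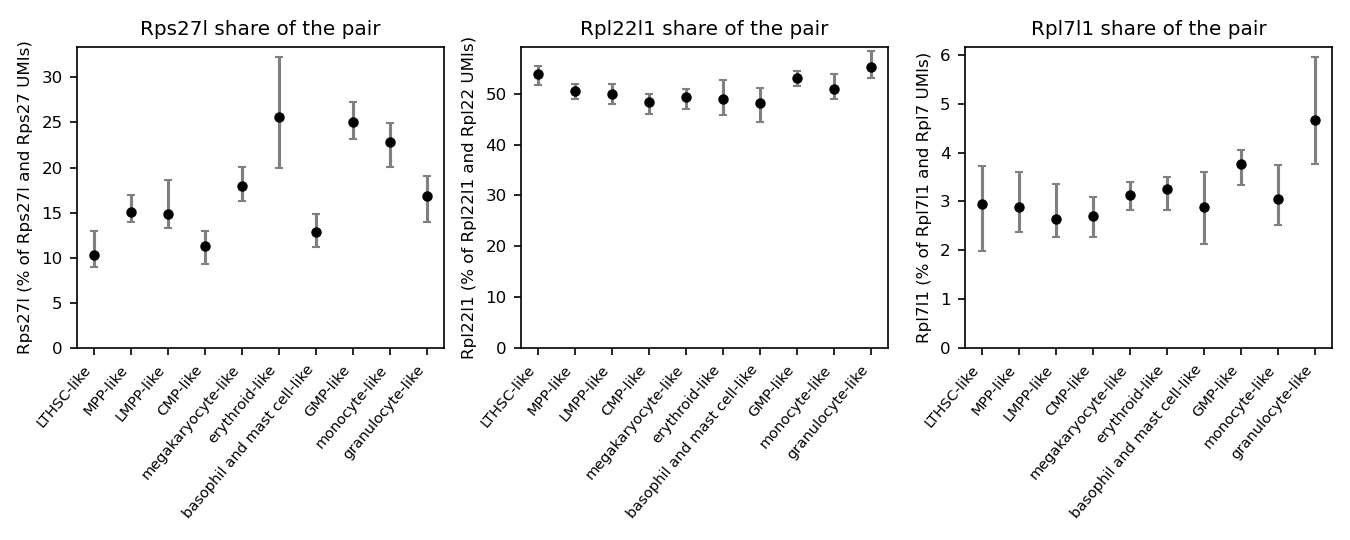
Percent of the UMIs of 3 gene pairs that fell to Rps27l, Rpl22l1 and Rpl7l1 (vertical axes) in 10 classes, with the mean of 8 pools as a point and the lowest and highest pool as bars. Rps27l goes from 10.3% in LTHSC-like to 25.0% in GMP-like and 25.6% in erythroid-like cells, while Rpl22l1 stays between 48.2% and 55.3%.

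Rps14 fell in every comparison with LTHSC-like cells. LTHSC-like pools had 8513, 9305 and 9860 CPM (lowest, median, highest), GMP-like pools 5547, 6287 and 6752, and erythroid-like pools 6057, 6294 and 6835; neither overlapped LTHSC-like pools. The log2 fold changes were -0.11 in LMPP-like (edgeR adjusted p = 0.00665), -0.27 in GMP-like (standard error 0.0352, adjusted p = 1.62e-10) and -0.28 in erythroid-like cells (adjusted p = 3.24e-11). Those in GMP-like and erythroid-like cells were called under all 5 scalings, and that in LMPP-like cells was not. Rps19, the gene most often mutated in Diamond-Blackfan anaemia, had 0.19 in GMP-like (adjusted p = 6.81e-05) and 0.07 in erythroid-like cells (adjusted p = 0.124), and its sign in both changed with library totals only.

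Rpl41, the smallest ribosomal protein, had 5662 to 6986 CPM in LTHSC-like, 7477 to 9345 in GMP-like and 7692 to 9610 in erythroid-like pools, and neither of the latter overlapped LTHSC-like pools. It rose by 0.73 (adjusted p = 1.8e-31) and 0.70 (adjusted p = 1.16e-30, edgeR). Rps2, a small subunit protein near the mRNA entry site, had 4339 to 4963, 5273 to 6349 and 6382 to 7331 CPM in the same 3 classes, again without overlap. It rose by 0.62 in GMP-like (adjusted p = 5.35e-20) and by 0.84 in erythroid-like cells (adjusted p = 1.1e-27).

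Rpl21, of the large subunit, fell by 0.25 in GMP-like cells (adjusted p = 2.92e-08) and by 0.22 in LMPP-like cells (adjusted p = 1.19e-06) but had -0.02 in erythroid-like cells (adjusted p = 0.652). The last value depends on the TMM scale: in CPM and as a part of the member UMIs Rpl21 was lower in erythroid-like than in LTHSC-like cells in 8 of 8 pools, and 3 of 5 scalings called it lower. LMPP-like against LTHSC-like cells gave 42 of 81 members higher and 2 lower by edgeR (19.2% and 18.2% of all genes), with a median of 0.10 against -0.01 over all genes. On library totals 11 were higher (14.2% of all genes) and 6 lower (23.4%). The 11 members that include Rps27l, Rps2, Rpl4 and Rpsa were higher under all 5 scalings, a share (13.6%) near that of all genes (14.1%), and Rpl21 alone was lower under all 5 (15.5% of all genes).

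In erythroid-like against LTHSC-like cells 61 of 81 members were higher and 2 lower (36.5% and 36.9% of all genes), with a median of 0.23 against -0.00. Library totals gave 23 higher (26.3% of all genes) and 29 lower (46.8%). The set called higher under all 5 scalings had 23 members (28.4%, near the 26.3% of all genes), and the set called lower had 2 (36.6% of all genes). Among the former were the laminin receptor protein Rpsa (0.47), Rps12 (0.69) and Rpl14 (0.49). The genes of the stalk that recruits elongation factors were not alike: Rplp0 (0.53), Rplp1 (0.44) and Rpl12 (0.49), which sits at the stalk base, were called under all 5 scalings, while Rplp2 (0.29, edgeR adjusted p = 7.02e-10) was called under 4 and lay close to the members' median. In GMP-like cells Rplp0, Rplp1, Rpl12 and Rplp2 had 0.26, 0.14, 0.25 and 0.28, and all 4 turned negative on library totals.

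The direct contrast of the branches gave 18 members higher and 21 lower in GMP-like than in erythroid-like cells (33.3% and 44.2% of all genes), with medians of -0.00 and -0.10. RLE scaling changed this to 43 higher (38% of all genes) and 13 lower (38.7%). Under all 5 scalings 8 members were higher in GMP-like cells (31% of all genes), led by Rps29 (log2 fold change 0.28, adjusted p = 9.62e-14), Rpl35a (0.26) and Rpl10 (0.26). Lower under all 5 were 13 (38.3% of all genes), led by Rplp1 (-0.30, adjusted p = 1.07e-07), Rpl13a (-0.29) and Rplp0 (-0.27). Rps29 had 5849 to 8318 CPM in GMP-like and 4757 to 7132 in erythroid-like pools and Rplp1 had 4443 to 5730 and 5895 to 7131 CPM. Within pools Rps29 was higher in GMP-like cells in 8 of 8 and Rplp1 lower in 8 of 8, while across pools the ranges of Rps29 overlapped and those of Rplp1 did not.

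Rpl5 and Rpl11, which bind 5S rRNA and, when free, restrain Mdm2, had log2 fold changes of 0.23 and 0.26 in GMP-like and 0.34 and 0.14 in erythroid-like cells against LTHSC-like cells. The largest of the 4 adjusted p was 0.000697 by edgeR. With library totals the first 2 and the last turned negative, so only the value of Rpl5 in erythroid-like cells kept its sign. Of the 19 Diamond-Blackfan anaemia genes, 16 rose (84.2%) and 1 fell in GMP-like cells (median 0.25), and 14 rose (73.7%) and 1 fell in erythroid-like cells (median 0.15). These shares were near those of all members tested, 82.7% and 75.3%, and Rps27 was the one that fell. Of all genes tested 32% and 36.5% rose.

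Among other genes of protein synthesis, the 12 nucleolar assembly factors had larger medians than the members. In GMP-like cells 11 rose (91.7%, median 0.67) and in erythroid-like cells 12 rose (100%, median 1.03), while the members' median was 0.23 in both. Of all genes tested, 32% and 36.5% rose and 37.2% and 36.9% fell in these comparisons with LTHSC-like cells. Mitochondrial ribosomal proteins rose in 73 of 76 genes in each (medians 0.77 and 0.92), with 1 and 0 lower. Translation factors of the same mRNA class rose in 11 and 16 of 17 genes (medians 0.27 and 0.37), with 1 and 0 lower. These counts are on the TMM scale, and the shift to library totals is larger than the medians of the Diamond-Blackfan genes in both classes and of the translation factors in GMP-like cells. GMP-like against erythroid-like cells gave 0 of the 12 nucleolar factors higher and 11 lower (33.3% and 44.2% of all genes).

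In granulocyte-like against GMP-like cells all 81 members fell (32% of all genes did) and 0 rose (36.3%), and the same counts came from each of 5 scalings (29.4% of all genes fell under all 5). The median was -0.76, against 0.03 over all genes. Rps2 fell furthest (-1.16 on the TMM scale, edgeR adjusted p = 9e-37), followed by Rps27l (-1.01) and Rpl10 (-1.01), and the smallest fall was -0.21. In CPM, which rest on library totals, the median pool of Rps2 went from 5611 to 1744, a larger fall. The 10 most abundant other genes, S100a8, S100a9, Camp, Ngp, Tmsb4x, Lyz2, Lcn2, Malat1, Chil3 and Ltf, held 40.8% ± 5.42 of UMIs in granulocyte-like cells, where those of each other class held 4.92% to 6.56%. Their part in the fall of the members was not tested. All 17 translation factors and 12 nucleolar factors fell too (medians -0.75 and -1.31).

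Within the granulocyte-like class the share was 12.8% ± 2.31 in the cluster led by Fcnb and Camp and 6.13% ± 1.25 (SD, n = 8 pools each) in the cluster with Ltf and Ngp among its leading genes, which kept 329 member UMIs per cell. The other cluster, with Mmp9 and Cxcr2 among its leading genes, had 32.1% in 5 pools with enough cells. Its Kit (77.7 CPM), Car2 (330 CPM) and Klf1 (28.1 CPM) levels were above those of both clusters just named. The origin of these transcripts was not tested. Without the Mmp9 cluster all 81 members still fell (median -1.02). The members did not thin out evenly: from the GMP-like cluster led by Elane and Ly6c2 to the Ltf cluster, Rps27a, made as a fusion with ubiquitin, went from 193 to 334 per 10000 member UMIs and Rps9 from 135 to 327. Rps2 went from 167 to 81.03 in the same clusters. These parts sum the cells of all pools and carry no test.

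**Figure D4:**
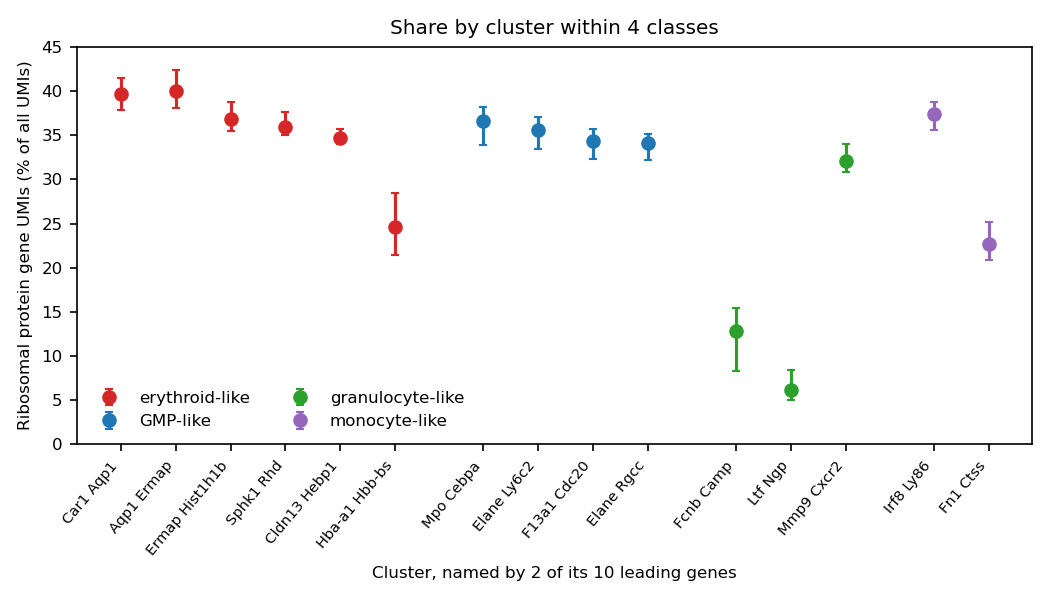
Percent of UMIs in the 83 ribosomal protein genes (vertical axis) in the clusters of 4 classes, each named by 2 of its 10 leading genes. Points are means over the pools with at least 20 cells and bars run from the lowest to the highest pool; the Ltf and Ngp cluster is lowest at 6.13%, and the erythroid-like clusters go from 39.7% to 24.6%.

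Along the erythroid-like clusters the share went from 39.7% (Car1 and Aqp1) and 40.1% (Aqp1 and Ermap) through 36.8% and 35.9% to 34.7% in the cluster of Cldn13 and Hebp1, the deepest one, with 30063 UMIs per cell. The globin cluster had 24.6% over 3 pools (21.5 to 28.4). Member UMIs per cell were 2640, 4401, 8175, 7118 and 9916 in the first 5 clusters in the same order and 3269 in the globin cluster, where both measures were low. From the first cluster to the Cldn13 cluster and the globin cluster, Rps27l went from 16.6 to 42.1 and 34.6 per 10000 member UMIs, Rpl41 from 170 to 266 and 291, and Rps2 from 139 to 224 and 217. Rps19 was among those whose part shrank, by 0.51 and 0.48 on the log2 scale.

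Housing was compared in the same way, CVT against SPF. In all KL cells the member share was 33.7, 34.8, 33.8 and 34.8% in SPF pools 1, 2, 7 and 8 and 35.5, 36.2, 35.9 and 35.7% in CVT pools 3, 4, 5 and 6. Every CVT pool was above every SPF pool, also when each cell was thinned to 2759 UMIs (32.8 to 34.9% against 35.3 to 36.7%). As a median over cells the groups overlapped (35.2 to 36.9% in SPF and 36.5 to 37.8% in CVT pools). The mean shares of the summed UMIs differed by 1.58 percentage points, and by 1.45 without CVT pool 4. A different mix of cells and a different member level per cell cannot be told apart in this sum.

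Inside GMP-like cells the shares were 33.0, 34.1, 34.9 and 34.9% in SPF and 35.4, 36.0, 36.0 and 36.4% in CVT pools, without overlap, and the same held with thinned cells (32.3 to 35.04% against 35.6 to 36.2%). Monocyte-like cells had 32.0 to 35.2% in SPF and 35.3 to 38.1% in CVT pools without overlap, but with thinned cells the groups overlapped (28.7 to 34.2% against 33.4 to 37.6%). This class joins a cluster at 37.4% and one at 22.7%, so that their mix and the level inside them cannot be told apart in its share. LTHSC-like cells (36.3 to 38.04% against 37.9 to 38.9%) and erythroid-like cells (36.0 to 37.5% against 36.0 to 38.03%) overlapped. Each pool of LTHSC-like cells had at least 44 cells, the smallest group of those compared.

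No single member passed the test between housing groups. With edgeR, 0 of 83 members tested in all KL cells, 0 of 81 in LTHSC-like, 0 of 81 in GMP-like and 0 of 82 in erythroid-like cells had an adjusted p under 0.05, and 0% of all genes did in each (0 in either direction). DESeq2 also gave 0 members in each. The smallest adjusted p among members was 0.64, 0.79, 0.87 and 0.91. At an unadjusted p under 0.05, 47, 36, 33 and 2 members (56.6%, 44.4%, 40.7% and 2.44%) were higher in CVT pools, where 2.99%, 3.15%, 2.98% and 1.89% of all genes were, so that the count in erythroid-like cells was near that of all genes. At the same p 0 members were lower in each, against 4.04%, 2.36%, 2.71% and 2.73% of all genes.

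The members' median log2 fold change was 0.12 in all KL cells (-0.01 over all genes), 0.12 in LTHSC-like (0.00), 0.11 in GMP-like (0.00) and 0.04 in erythroid-like cells (-0.00). Without CVT pool 4 these were 0.10, 0.10, 0.10 and 0.05, again with 0 called. In pools 1 to 4 alone and pools 5 to 8 alone, the members' median of log2 CPM differences was 0.08 and 0.06 in all KL cells, 0.09 and 0.04 in LTHSC-like, 0.11 and 0.04 in GMP-like and 0.02 and 0.03 in erythroid-like cells. On this CPM scale the medians over all genes lay below 0. They were -0.09 and -0.04, -0.06 and -0.04, -0.04 and -0.03, and -0.04 and -0.02 in the same order. Above 0 in both sets were 58 of 83, 47 of 81, 52 of 81 and 35 of 82 members, against 14.1%, 18.8%, 19.4% and 19.7% of all genes. Below 0 in both were 3, 4, 3 and 12 members, against 44.6%, 32.5%, 35.6% and 32.2% of all genes.

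Every CVT pool was above every SPF pool in CPM for 18 of 83 members (21.7%) in all KL cells, where 0.901% of all genes did so, and for none below (5.26% of all genes). The count was 12 of 81 above and 0 below in LTHSC-like (0.861% and 2.53% of all genes) and 17 above and 1 below in GMP-like cells (1.27% and 3.48%). Erythroid-like cells had 1 of 82 above and 0 below (0.895% and 1.96%). Without CVT pool 4 the members above were 21 (1.63% of all genes), 14 (2.07%), 21 (2.35%) and 1 (1.72%), and those below were 0 (6.12%), 0 (4.93%), 1 (5.48%) and 0 (2.7%). The members share libraries and totals and do not count as separate observations.

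**Figure D5:**
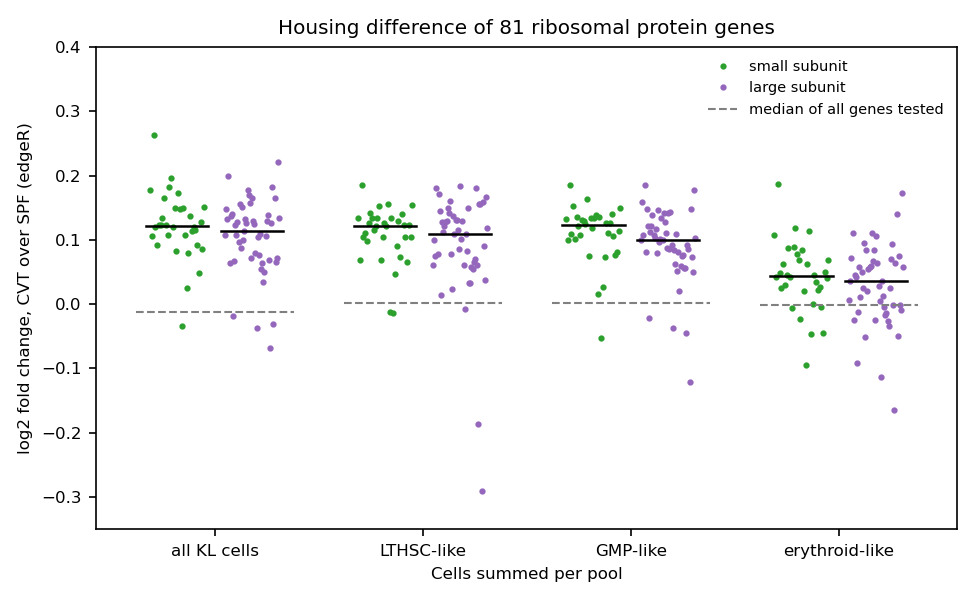
Log2 fold change of CVT over SPF (vertical axis, edgeR) in 4 cell populations for 81 members without Rpl3l and Rpl39l, with 1 point per gene, small and large subunit apart. Solid lines are the medians of each subunit and dashed lines those of all genes tested, which lie near 0 and below the solid lines in all 4.

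Rps12, a small subunit protein at the beak of the subunit, had the smallest p of the members in erythroid-like cells and was among the 3 smallest in all KL cells. It had 3620, 3760, 3637 and 3872 CPM in SPF pools and 4061, 4901, 4094 and 4178 in CVT pools, which did not overlap, and the log2 fold change of 0.26 (standard error 0.0706) had an adjusted p of 0.636 by edgeR; without CVT pool 4, its highest pool, it was 0.18. Rps25, in the decoding head, had 3202 to 3365 against 3459 to 3718 CPM (0.17) and Rps23, at the decoding centre, 6779 to 7263 against 7445 to 7699 (0.15), both with the same adjusted p, and both were 0.14 without CVT pool 4.

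Rpl10a had the smallest p in GMP-like cells. SPF pools had 3349, 3529, 3479 and 3667 CPM and CVT pools 3783, 4045, 3667 and 3763, with the nearest pools of the groups level, and the log2 fold change was 0.16 (standard error 0.0531, edgeR adjusted p = 0.874). Rplp1 had 4443 to 5022 against 5042 to 5730 CPM (0.18), without overlap. Without CVT pool 4 the values of Rpl10a and Rplp1 were 0.13 and 0.14. The 8 genes that the study names in GMP (Rpl12, Rps12, Rplp1, Rps2, Rpl10a, Rpl14, Rpsa and Rpl27a) were all above 0, with a median of 0.15; they were chosen on these samples and are no independent evidence of direction.

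In GMP-like cells 5 of 81 members had a log2 fold change below 0, and Rpl7l1 was the one whose groups did not overlap. SPF pools had 125, 129, 131 and 128 CPM and CVT pools 116, 119, 111 and 113, so every CVT pool was lower; 1 of 81 members (1.23%) is fewer than the 3.48% of all genes. Its log2 fold change was -0.12 (standard error 0.0589, edgeR adjusted p = 0.877), and it was -0.29 in LTHSC-like cells, where the groups overlapped. Without CVT pool 4 these were -0.14 and -0.35. Over pools left out the LTHSC-like value ran from -0.35 to -0.14. The log2 CPM difference of Rpl7l1 in LTHSC-like cells was -0.00394 in pools 1 to 4 and -0.549 in pools 5 to 8. Of the other protein synthesis genes in GMP-like cells, 1 of 12 nucleolar factors and 30 of 76 mitochondrial ribosomal proteins were above 0 (medians -0.11 and -0.02), and 0 were called by edgeR; without adjustment, 1 nucleolar factor was lower and 0 higher at p under 0.05, against 5 and 1 mitochondrial ones.

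In LTHSC-like cells the smallest p belonged to Rpl13a, with 5775, 6098, 6326 and 6401 CPM in SPF and 6520, 7035, 6583 and 6673 in CVT pools (log2 fold change 0.17, edgeR adjusted p = 0.789, and 0.15 without CVT pool 4), and the groups did not overlap. Whether housing acted differently in GMP-like and LTHSC-like cells was tested as an interaction over 9707 genes. It gave 0 of 81 members higher (0.0309% of all genes) and 0 lower (0.0412%) by edgeR and 0 by DESeq2, with 1 each at an unadjusted p under 0.05, Rpl6l (0.18) and Rpl5 (-0.11). The members' median was 0.01, the same as over all genes, and the smallest adjusted p was 0.98.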

How the data were processed

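The deposited table holds UMI counts per gene and cell, which the authors made with Cell Ranger (version not given in the sources used here; build mm9 per the labels), as whole numbers without normalization. All 29891 cells were used; the cells per housing group differ slightly from those the study states. Counts scaled to 10000 UMIs per cell were clustered on 1000 variable genes other than the members (30 principal components, scikit-learn 1.9.0; 30 neighbours; Leiden resolution 2, leidenalg 0.10.2), which gave 34 clusters. Names needed 3 markers and 1 among the 10 leading genes; the 2 erythroid marker lists were merged after the clusters were seen, and a class needed 20 cells in every pool. Doublets were sought with Scrublet in scanpy 1.11.5. Sums per pool were tested with edgeR 4.0.16 (filterByExpr, TMM, glmQLFTest; R 4.3.3), with DESeq2 1.42.0 as an alternative, at an adjusted p of 0.05. P-values of the housing tests measure the spread between pools of mice. Those of the state comparisons and of the interaction measure the spread that remains with the pool as a term. CPM are computed from the sums. Pools 1 to 4 and 5 to 8 are sets by mouse number, not a stated batch.

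The members, gene lists, markers and tests were chosen with earlier results of these data known. Genes named are the 3 largest changes each way between states, the 3 smallest p each way between housing groups, the extremes of spread over classes, paralogue pairs, stalk genes, Rpl5, Rpl11, Rps14, Rps19 and the study's GMP list; those singled out in CVT pool 4, in cluster series and by scaling were chosen after their values were seen. Some genes that this rule or a list would name are not reported here. Library totals, the Mmp9 cluster and the overlap without CVT pool 4 were alternatives added after the data were seen. On simulated data with 200 genes changed by a fold of 2, 97.5% were recovered for housing in all KL cells (13093 genes), 94.5% for GMP-like against LTHSC-like cells (10017 genes) and 50% for the interaction (8666 genes). Changes as small as the members' housing medians were not simulated. These recoveries therefore say nothing about the power to call a member between housing groups.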

Additional observations from a re-analysis of the deposited data

Results flagged for a closer look

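In 3 of 70 groups of 4 pools, 1 pool lay far from the other 3, where chance alone flags about 1 in 20 groups. Rps12 had 4901 CPM in all KL cells of CVT pool 4 against 4061 to 4178 in the other CVT pools. In LTHSC-like cells Rps12 had 4290 CPM in the same pool against 3564 to 3678. The member share of basophil and mast cell-like cells was 36.9% in SPF pool 7 against 34.99 to 35.21% in the other SPF pools.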

How the results depend on the processing

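Counts are given as members higher and lower. The share of all genes called moves with the setting too, so a change in a count is not particular to the members. In LMPP-like against LTHSC-like cells 19.2% of all genes were higher and 18.2% lower in the main fit. These shares were 14.2% and 23.4% on library totals, and 23.4% and 15.5% with library size without the members. For the settings other than scaling, no share of all genes is given here. LMPP-like against LTHSC-like cells gave 42 higher and 2 lower; this became 32 and 4 with RLE, 11 and 6 on library totals, 71 and 1 without a filter on low counts, 16 and 0 at clustering resolution 1, 19 and 11 with a filter on cells and 25 higher with thinned cells, while 1 was lower with library size without the members and 4 with DESeq2. GMP-like against LTHSC-like cells gave 67 and 4, then 13 and 34 on library totals, with 9 lower under RLE and DESeq2, 2 without the low-count filter and 8 with thinned cells. Erythroid-like against LTHSC-like cells gave 61 and 2, then 39 and 18 with RLE, 23 and 29 on totals, 35 and 10 thinned, and 19 lower with DESeq2, 4 at resolution 1, 6 with members in the clustering and 5 with the cell filter. GMP-like against erythroid-like cells gave 18 and 21, then 43 and 13 with RLE, 37 and 13 without the members in the library size, 40 and 12 without the low-count filter, 40 and 13 with members in the clustering, 8 higher on totals, 44 higher with DESeq2 and 12 lower thinned. Granulocyte-like against GMP-like cells gave 0 higher, and 1 without the low-count filter. Leaving out 1 pool gave 2 to 5 lower for erythroid-like against LTHSC-like cells (4 without SPF pool 1, and 5 without CVT pool 5, CVT pool 6 or SPF pool 7) and 16 to 34 higher and 13 to 22 lower for GMP-like against erythroid-like cells (32, 30 and 34 higher without CVT pool 5, CVT pool 6 and SPF pool 7, and 13 lower without CVT pool 5). The cause of these moves was not tested.

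States of a pool share its mice and library, so the pool was a term in every state comparison. With no replicate block, 19 and 1 members were called for LMPP-like against LTHSC-like and 8 and 13 for GMP-like against erythroid-like cells. Housing groups share no replicate numbers, so their pools cannot be matched one to one. With the set of pools (1 to 4, 5 to 8) as a term, 0 members were called in each of the 4 populations. The smallest adjusted p of members were 0.205, 0.495, 0.338 and 0.772 by edgeR, and the members' medians were 0.12, 0.11, 0.11 and 0.04. Among all genes tested, 1, 0, 1 and 0 were called higher and 3, 0, 0 and 0 lower.

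The difference in share was 0.19 points for LMPP-like minus LTHSC-like cells and -0.799 with the filter on cells. It was -2.67 for GMP-like minus LTHSC-like cells (-1.88 with members in the clustering), -1.06 for erythroid-like minus LTHSC-like cells (-0.0559 as a median over cells) and -21.07 for granulocyte-like minus GMP-like cells (-28.7 as a median over cells, -24.7 without the Mmp9 cluster). Signs turned for some small housing differences, whose range over pools left out was -0.11 to 0.0601 for Rpl35 in all KL cells, -0.21 to 0.00439 for Rpl35 in erythroid-like cells, -0.37 to 0.079 for Rpl39l in all KL cells, -0.11 to 0.0327 for Rpl6l in GMP-like cells and -0.0400 to 0.0185 for Rps27l in LTHSC-like cells. The sign of Rpl35, Rpl39l and Rpl6l turned without CVT pool 4, that of Rpl39l also without SPF pool 8 (0.05), and that of Rps27l without SPF pool 1. The interaction for Rpl7 was 0.0227 at resolution 1 and 0.0532 thinned, and Rpl7l1 in LMPP-like cells was 0.011 without the low-count filter, 0.0408 with members in the clustering and 0.00802 with the cell filter. No member was called between housing groups by edgeR or DESeq2 in the alternatives run. Small pools limit the LTHSC-like values, with 44 cells in the smallest.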
